A study of Mus musculus with 39 samples.

Results

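H3K27ac in double-positive (DP) and Pdgfra+ nEnd was compared gene by gene from the deposited peak lists of 6 CUT&Tag libraries, 3 of each population, out of 39 samples in the series, of which 36 had a processed file here. All 6 came from the same OCT4-mCherry mouse line grown as naive extra-embryonic endoderm (nEnd) without treatment, and the antibody was Abcam ab4729. The cultures, kept on mouse embryonic fibroblasts in RACL medium with LIF, CHIR99021 and Activin A, were separated by FACS on OCT4-mCherry and PDGFRA-APC, so DP cells carried both signals and Pdgfra+ cells carried PDGFRA without the OCT4 reporter. The members were chosen by label only: every H3K27ac list of the 2 populations entered, and no Oct4+ list did. The study describes its libraries as biological replicates, and the sources do not say whether each came from a culture or sort of its own, so the p-values measure the spread between these libraries.

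H3K27ac is acetylation of lysine 27 of histone H3 and marks active promoters and enhancers. In CUT&Tag an antibody directs a transposase to the mark, and the tagged fragments pile up there as coverage. The primitive endoderm of the blastocyst depends on GATA6, GATA4 and SOX17 and lays down a basement membrane of type IV collagen and laminin, and nEnd is its culture counterpart. OCT4, encoded by Pou5f1, is best known from pluripotent cells, and PDGFRA is a receptor tyrosine kinase used to sort endoderm. The comparison asks whether the acetylated genes of PDGFRA-sorted cells differed with the OCT4 reporter.

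A peak was given to every protein-coding gene with a transcription start site (TSS) inside it or, if there was none, to the gene with the nearest TSS. A gene was called listed in a library if any peak of that library was given to it. The DP lists held 10957, 3079 and 12244 peaks in replicates 1, 2 and 3, and the Pdgfra+ lists 4792, 7128 and 4861. DP replicate 2 thus had the shortest list and the other DP libraries the longest. The depth in reads is unknown from the sources, so absence from a list was taken as not listed and never as lack of the mark. Total signal, the coverage summed over the bases of a peak, bottomed out at 13683 to 14586 in DP, at 27115 and 28044 in Pdgfra+ replicates 1 and 3, and at 8736 in Pdgfra+ replicate 2. Every comparison was therefore made with all peaks and again with the 3079 peaks of highest total signal from each list, which is the whole list of DP replicate 2 ("equal numbers"). In equal numbers the lowest total signal still ran from 13647 in Pdgfra+ replicate 2 to 36500 in DP replicate 3. Pdgfra+ replicates 1 and 3 shared an interval of 72.1 kb on chromosome 11 (3126398 to 3198512, GRCm38) with total signals of 2601678 and 2053268, against 324760 and 319790 for the next highest peak of each list. None of the other 4 lists held a peak there.

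The cells of both populations carried H3K27ac at endoderm genes. Of 9 endoderm markers, 7 (Gata4, Gata6, Sox17, Sox7, Foxa2, Col4a1 and Lama1) were listed in all 6 libraries. Pdgfra itself was listed in all but DP replicate 2, and Dab2, an endocytic adaptor, in DP replicates 1 and 3. Of 7 pluripotency markers, 4 (Nanog, Sox2, Esrrb and Dppa3) were listed in none of the 6 libraries and 1 (Klf4) in all 6. Pou5f1 had a peak over its TSS in DP replicate 1, at rank 808 by total signal, and in Pdgfra+ replicate 3, at rank 1905, and none in the other 4. The promoter of the reporter's gene was thus listed in 1 library of each population. Of 5 trophectoderm markers, Krt8 was listed in all 6 libraries, Cdx2 in all but DP replicate 2 and Elf5 in all but Pdgfra+ replicate 3. Gata3 was listed in DP replicates 1 and 3 and Pdgfra+ replicate 2, and Eomes in DP replicate 1. None of 7 fibroblast markers, a check for the feeder layer, was listed in any library. Of the longer list of 12 fibroblast markers used further on, Lum and Dcn were listed in DP replicate 1 only, at ranks 8951 and 10807. None of 3 mesoderm markers was listed, and of 3 neural markers Pax6 and Neurod1 were listed in DP replicate 3 only.

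Genes with H3K27ac numbered 8796, 3040 and 9246 in the DP libraries and 4422, 6186 and 4896 in the Pdgfra+ libraries, of 21646 protein-coding genes. The means were 7027 ± 3460 and 5168 ± 913 (SD, n = 3 each), and the ranges overlapped because of DP replicate 2 (exact two-sided permutation test over 20 assignments, p = 0.40; adjusted p = 0.53 over 4 measures). The smallest p this design allows is 0.10. The share of peaks over a TSS was 63.3% ± 5.29 in DP and 68.8% ± 4.98 in Pdgfra+ (p = 0.30, exact permutation test, adjusted p = 0.53), and median peak width was 3659 ± 179 and 3975 ± 1090 bp (p = 0.70, exact permutation test, adjusted p = 0.70). In equal numbers the libraries held 3148, 3040 and 3037 genes in DP and 2987, 2996 and 3267 in Pdgfra+, and the mean difference fell to -8.33 genes.

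**Figure D1:**
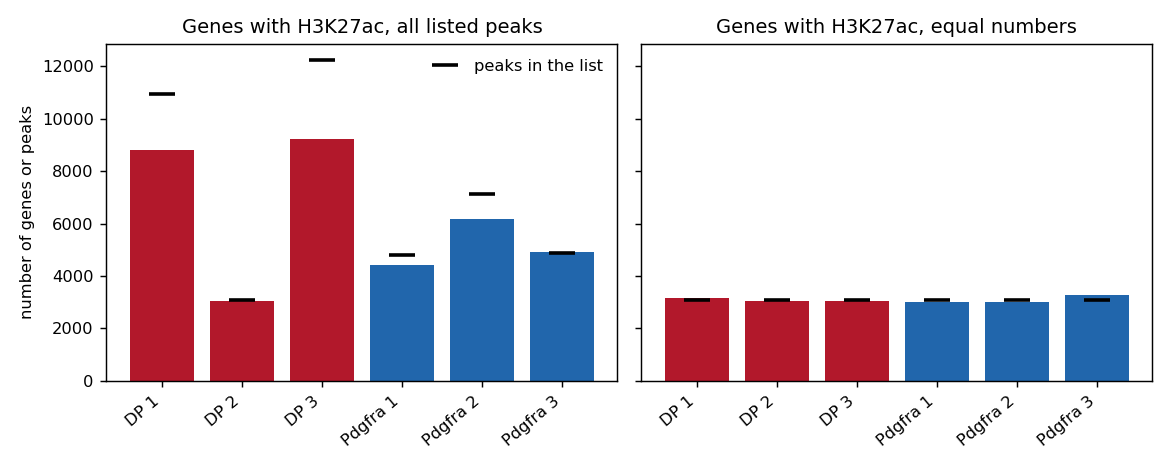
Number of genes with a listed H3K27ac peak (bars; red DP, blue Pdgfra+) and number of peaks (black dashes) in each library, with all peaks (left) and with the same number of peaks per list (right). DP replicate 2 has 3040 genes and the other DP libraries 8796 and 9246; with 3079 peaks per list all 6 lie between 2987 and 3267.

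Of 10144 genes listed in at least 1 library, 2453 (24.2%) were listed in all 6. With all peaks, 35 genes were listed in 3 of 3 DP and 0 of 3 Pdgfra+ libraries (0.345% of the 10144) and 0 genes the other way round (0%). The 2 directions did not have the same chance of a call, since a DP gene had to enter the 3079 peaks of DP replicate 2 and a Pdgfra+ gene had to miss the lists of 10957 and 12244 peaks. Leaving out a library can only keep or raise such a count. Without DP replicate 2, 1487 genes were listed in both remaining DP libraries and in no Pdgfra+ library, against 35 to 104 without any one of the other 5. These 1487 genes ranked low in both DP lists, at a median of 7881 in replicate 1 and 8625 in replicate 3, against 4470 and 4888 for all listed genes of those libraries. In replicate 1, 62.9% of them lay below rank 7128, the length of the longest Pdgfra+ list, and in replicate 3 73.3%, against 26.4% and 31.5% of all listed genes. In equal numbers 5034 genes were listed at least once, 1477 (29.3%) in all 6 libraries, 14 in DP only (0.278%) and 19 in Pdgfra+ only (0.377%).

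**Figure D2:**
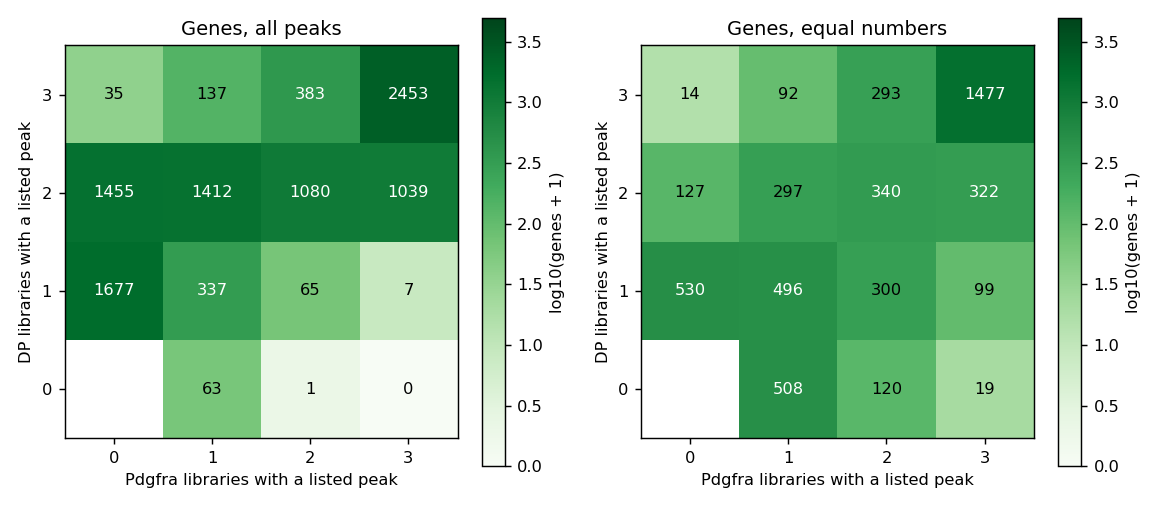
Number of genes by how many DP libraries (vertical) and Pdgfra+ libraries (horizontal) listed them, with all peaks (left) and equal numbers (right); shading is log10 of the number of genes plus 1. With all peaks the top left cell (DP only) holds 35 genes and the bottom right cell (Pdgfra+ only) 0; with equal numbers they hold 14 and 19.

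The 35 DP-only genes occupied 32 loci, since 3 pairs of neighbours (Cog8 and Nip7, Mob1a and Mthfd2, Cenpk and Ppwd1) shared their peaks. No peak of any Pdgfra+ list overlapped the DP peaks of 34 of them. The exception was Smim22, whose place was covered by all 3 Pdgfra+ lists but was given there to other genes, so it is not a difference in the mark. A peak lay over the TSS of 28 genes in at least 1 DP library, and at 32 genes all 3 DP lists overlapped at the same place. At the other 3, Slc35g1, Peli1 and Gpr135, no place was held by all 3 DP lists, so different peaks were given to 1 gene. In DP replicate 2 the strongest peaks of the 35 genes ranked between 1389 and 3045 of 3079. After Smim22, the genes with the highest mean rank were Dkk1, a secreted inhibitor of Wnt signalling, Pdxk, a vitamin B6 kinase, Slc35g1, Cog8 and Nip7, Denr, a translation re-initiation factor, Mfsd14b, Elf4, an ETS transcription factor, Rhpn1, Peli1, an E3 ubiquitin ligase, and Xkr5. Dkk1 and Pim1 were the only members of the pathway lists described further on among the 35, and both had their strongest peaks away from the gene. Counted as merged regions in place of genes, an alternative chosen after seeing the data, 51 of 13933 regions were in DP only and 0 in Pdgfra+ only, and in equal numbers 18 and 21 of 5256.

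At Dkk1 (chromosome 19, minus strand) the strongest peak lay 31.5 kb from the TSS in DP replicates 1 and 2 and 33.6 kb from it in replicate 3. Its total signals were 42299, 17240 and 25456 at ranks 1453, 1741 and 5927. DP replicate 3 alone also listed the TSS, at rank 10754. No Pdgfra+ library listed a peak for Dkk1, which is how the gene was chosen. The totals of DP replicates 2 and 3 were below the lowest totals listed in Pdgfra+ replicates 1 and 3 (27115 and 28044). They were above that of Pdgfra+ replicate 2 (8736). Totals of different libraries may not share a scale, since depth is unknown. Over genes listed in all 6 libraries, the median highest maximum signal was 16 in DP replicate 2 and 34 in DP replicate 3. It was 33, 16 and 36 in Pdgfra+. At Pim1, a kinase gene that is a target of STAT signalling (chromosome 17, plus strand), a peak 38.0 to 38.7 kb from the TSS was listed in all 3 DP libraries, with total signals of 17982, 14434 and 27427 at ranks 7874, 2736 and 5285. DP replicates 1 and 3 listed the Pim1 TSS as well, at ranks 10791 and 9300. In DP these peaks were thus of middle or low rank, while none of them was in a Pdgfra+ list. All 3 Pim1 totals exceeded the lowest total of Pdgfra+ replicate 2 (8736). Only 27427 exceeded that of replicate 1 (27115), and none that of replicate 3 (28044). Bmp6, which encodes a BMP ligand, stood apart for its rank: a peak 31.3 to 31.8 kb from its TSS had ranks 1571, 710 and 2185 in DP, and Pdgfra+ replicate 1 listed an overlapping peak at rank 4058, while Pdgfra+ replicate 2 listed the Bmp6 TSS and a site 55.0 kb from it, at ranks 6590 and 5532, and Pdgfra+ replicate 3 no peak of Bmp6. The sequence under the maximum of these 3 distal peaks is shown with that of the Socs1 peak, which was ranked higher in Pdgfra+ and is described with the equal-number genes. Each run is 300 bases of the RefSeq GRCm38.p6 genome centred on the interval of maximum signal in 1 library, and the capitals mark that interval.
Dkk1 distal peak (maximum of DP replicate 3), chr19:30514699-30514998, plus strand: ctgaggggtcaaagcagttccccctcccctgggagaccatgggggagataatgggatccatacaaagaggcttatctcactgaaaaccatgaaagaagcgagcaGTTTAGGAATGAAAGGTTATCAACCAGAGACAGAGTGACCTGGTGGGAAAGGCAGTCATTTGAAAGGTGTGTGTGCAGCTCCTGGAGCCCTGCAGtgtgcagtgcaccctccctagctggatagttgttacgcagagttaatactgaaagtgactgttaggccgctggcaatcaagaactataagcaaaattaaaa
Pim1 distal peak (maximum of DP replicate 2), chr17:29450930-29451229, plus strand: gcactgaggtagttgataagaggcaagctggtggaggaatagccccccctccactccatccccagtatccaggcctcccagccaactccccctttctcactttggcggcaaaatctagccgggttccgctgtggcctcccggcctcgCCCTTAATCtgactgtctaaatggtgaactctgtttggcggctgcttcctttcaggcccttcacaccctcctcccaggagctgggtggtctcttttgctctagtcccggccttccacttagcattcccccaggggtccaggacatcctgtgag
Bmp6 distal peak (maximum of DP replicate 1), chr13:38312297-38312596, plus strand: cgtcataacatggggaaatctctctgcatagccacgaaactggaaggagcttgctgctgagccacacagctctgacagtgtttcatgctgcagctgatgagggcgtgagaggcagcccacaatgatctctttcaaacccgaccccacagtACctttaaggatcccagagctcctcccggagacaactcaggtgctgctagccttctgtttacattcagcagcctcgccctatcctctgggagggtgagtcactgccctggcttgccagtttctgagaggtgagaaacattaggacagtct
Socs1 TSS peak (maximum of Pdgfra+ replicate 3), chr16:10786063-10786362, plus strand: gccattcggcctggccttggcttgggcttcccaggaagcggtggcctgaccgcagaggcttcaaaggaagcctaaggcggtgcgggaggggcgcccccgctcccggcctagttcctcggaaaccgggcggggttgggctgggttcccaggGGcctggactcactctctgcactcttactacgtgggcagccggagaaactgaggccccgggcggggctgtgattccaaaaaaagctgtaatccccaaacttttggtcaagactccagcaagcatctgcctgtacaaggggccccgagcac

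All 3 DP lists and no Pdgfra+ list covered the Dkk1 and Pim1 windows, 3 DP lists and 1 Pdgfra+ list the Bmp6 window, and 2 DP lists and 3 Pdgfra+ lists the Socs1 window. The windows were searched on both strands for the string TTCCNGGAA of STAT factors and the string CCACACCC of KLF factors. The string AGATAAG stood for the motif of GATA factors. For AP-1 the string TGACTCA was used, and forkhead (FOX) factors were represented by TGTTTAC. The Dkk1 window held AGATAAG at bases 71 to 77 on the minus strand. The Bmp6 window held TGTTTAC at bases 206 to 212 on the plus strand and TGACTCA at bases 245 to 251 on the minus strand, and none of these matches overlapped another. The Pim1 and Socs1 windows held none of the 5 strings. Over all such windows of peaks without a TSS, AGATAAG was found in 10.3, 10.4 and 10.7% in DP and 13.3, 11.4 and 9.73% in Pdgfra+. TGACTCA was found in 12.3, 16.3 and 16.6% of them in DP and 20.1, 18.3 and 15.9% in Pdgfra+, and TGTTTAC in 6.20, 7.52 and 7.07% and 7.56, 6.67 and 5.46%. The populations overlapped for all 3 strings. TTCCNGGAA was found in 1.19 to 1.98% over the 6 lists and CCACACCC in 5.70 to 7.28%. Windows over a TSS held AGATAAG in 1.34 to 2.06% and TGACTCA in 3.48 to 6.08% of cases. A match is a string of letters and does not show that a factor was bound.

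In equal numbers most genes that separated the populations were also listed in the other population, further down. Of the 14 DP-only genes, 6 were listed in all 3 Pdgfra+ libraries when all peaks were used, 6 in 2 of them, 1 in 1 and 1 (Smim22) in none. Of the 19 Pdgfra+-only genes, all were listed in DP replicates 1 and 3 further down. None could be listed in DP replicate 2, since its equal-number set is its whole list. The group of DP-only genes in equal numbers shared 1 gene, Smim22, with the 35 from all peaks. Klf2, a transcription factor gene of naive pluripotent cells, had a TSS peak at ranks 2821, 2105 and 2290 in DP. It had a TSS peak at rank 4812 in Pdgfra+ replicate 2, a peak 31.7 kb away at rank 4204 in replicate 1 and none in replicate 3. DP replicates 1 and 3 listed a peak at that distance too, at ranks 10830 and 10616. Tial1, which encodes an RNA-binding protein, ranked 1988, 2195 and 1903 in DP and 3320, 4282 and 3985 in Pdgfra+, where every library listed it. Snd1, a nuclease and coactivator gene, ranked 1373, 2472 and 1156 in DP and 4218, 5040 and 3698 in Pdgfra+. The neighbours Fau, a ribosomal protein fusion gene, and Mrpl49 shared a peak at ranks 1065, 2437 and 1147 in DP and 4597, 4579 and 4284 in Pdgfra+. Cks2, a cell cycle kinase subunit, ranked 2849, 1413 and 2311 in DP and 5636 and 4258 in Pdgfra+ replicates 2 and 3. In these genes the ranks of the populations did not overlap, which the choice of genes fixes. The remaining named DP genes were Sh3bp4, Abhd17a, Stard10, Olfr874 and Sec24c.

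Of the Pdgfra+-only genes of equal numbers, Socs1, which encodes an inhibitor of JAK signalling (chromosome 16, minus strand), had a TSS peak at ranks 872, 2535 and 2098 in Pdgfra+ and 3401 and 3769 in DP replicates 1 and 3. Its total signals were 52668, 14769 and 41495 in Pdgfra+ and 29876 and 33018 in DP. Itgb1, the integrin beta 1 chain that binds laminin and collagen, ranked 2587, 2201 and 2268 in Pdgfra+ and 4662 and 4534 in DP. The maximum signal of its TSS peak, in contrast, was 40, 22 and 38 in Pdgfra+ and 34 and 31 in DP replicates 1 and 3, so the populations overlapped on that measure. Kdm2a, a histone demethylase gene, ranked 2130, 804 and 2601 in Pdgfra+ and 3825 and 3864 in DP, and Brpf3, a subunit gene of histone acetyltransferase complexes, 1567, 1784 and 2471 against 3138 and 3865. Wbp11, Tm9sf3, Hmgxb3, Fcho2, Mbd2, a methyl-CpG binding protein gene, Siva1, Dync1li2 and Mroh8 completed the genes named by rank. Of the 19, 3 carried clone names, and 3 pairs of neighbours shared peaks. Leaving out a library relaxes the criterion, and any one of the 6 left out gave 23 to 83 DP-only and 47 to 77 Pdgfra+-only genes. Both groups grew when the shortest list was left out and 4792 peaks were taken from each of the remaining 5, to 36 DP-only and 44 Pdgfra+-only genes, an alternative chosen after seeing the data.

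**Figure D3:**
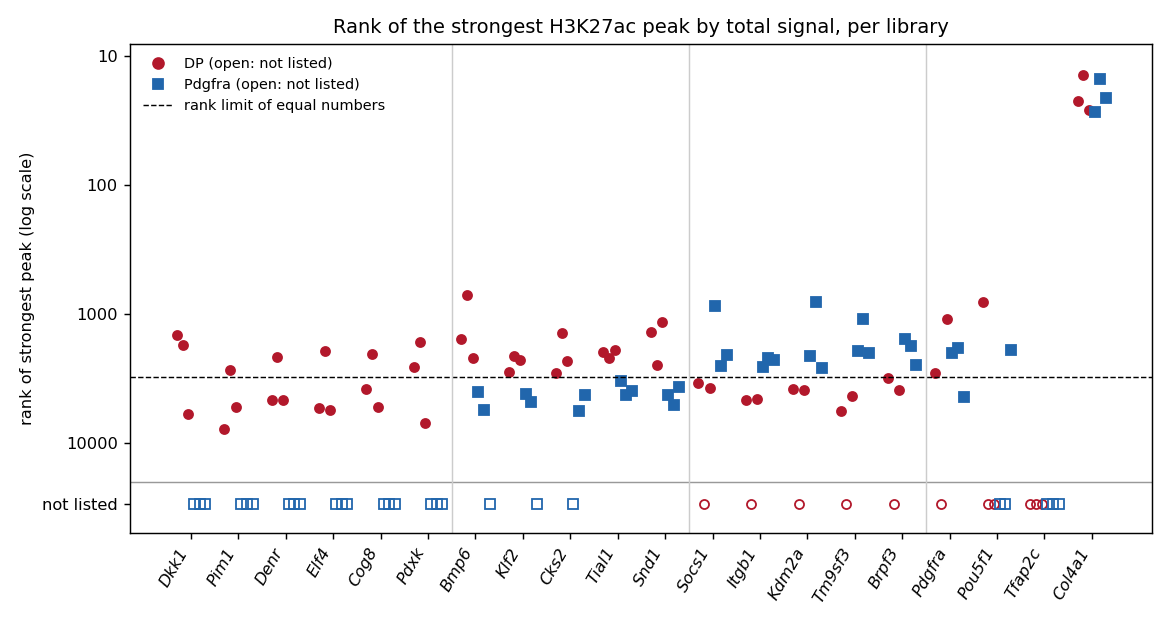
Rank of each gene's strongest H3K27ac peak by total signal (log scale, 1 is the strongest) in 3 DP (red circles) and 3 Pdgfra+ (blue squares) libraries; open symbols in the lowest strip mark libraries that did not list the gene, and the dashed line is the rank limit of equal numbers. The first 6 genes were listed in DP only, the next 5 and the next 5 lie on either side of the limit, and Col4a1 ranks 14 to 27 in all 6.

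A peak among the first 100 of every list was given to 22 genes, and 296 genes had one among the first 100 of at least 1 list. Of the 296 genes, 254 were listed at some rank in all 6 libraries. The 22 included Col4a1 and Col4a2, the type IV collagen genes that share a promoter, at ranks 22, 14 and 26 in DP and 27, 15 and 21 in Pdgfra+. Hspg2, the perlecan gene of the basement membrane, was at 18, 71 and 25 in DP and 7, 84 and 32 in Pdgfra+. Lmna, which encodes lamin A/C, was at 2, 16 and 20 and at 5, 13 and 9, and Src, a tyrosine kinase gene, at 9, 5 and 8 and at 4, 1 and 16. Other genes near the top differed in rank, and 2 of them are given here after their values were seen. Smad7, which encodes an inhibitor of TGF-beta signalling, ranked 12, 42 and 12 in DP and 276, 150 and 84 in Pdgfra+. Its maximum signal overlapped between the populations, at 37, 30 and 40 in DP and 46, 19 and 48 in Pdgfra+. Rpl23a, a ribosomal protein gene, ranked 77 and 80 in DP replicates 1 and 3 and was listed in no other library. Whether the other lists covered its place with peaks given to other genes, as at Smim22, was not tested. Gata4 ranked 56, 63 and 113 in DP and 93, 12 and 51 in Pdgfra+, and Gata6 441, 601 and 743 and 645, 195 and 417, so the ranks of both endoderm factors overlapped between the populations. Sox17 ranked 3332, 1873 and 2177 in DP and 1449, 1291 and 1808 in Pdgfra+, without overlap. Its strongest peak lay over the TSS in DP replicate 1 and Pdgfra+ replicate 1, and away from it in the other 4 libraries.

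Pairs of libraries were compared by the Jaccard index, the number of genes listed in both over the number listed in either. With all peaks it was 0.790 for DP replicates 1 and 3 but 0.344 and 0.325 for DP replicate 2 with them. It was 0.615 to 0.652 within Pdgfra+ and 0.445 to 0.649 between the populations. The mean within populations exceeded that between them by 0.0198 (exact one-sided permutation test over 10 partitions, p = 0.40, smallest possible p 0.10). In equal numbers the index was 0.543 to 0.592 within DP, 0.570 to 0.597 within Pdgfra+ and 0.542 to 0.676 between them, and the difference was -0.0153 (exact permutation test, p = 0.80). The 3 most alike pairs in equal numbers joined DP replicate 1 with Pdgfra+ replicate 3 (0.676), DP replicate 3 with Pdgfra+ replicate 1 (0.650) and DP replicate 2 with Pdgfra+ replicate 3 (0.622), each of 1 library from either population. On these lists, libraries of 1 population shared on average no larger a part of their genes than libraries of different populations did in equal numbers.

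**Figure D4:**
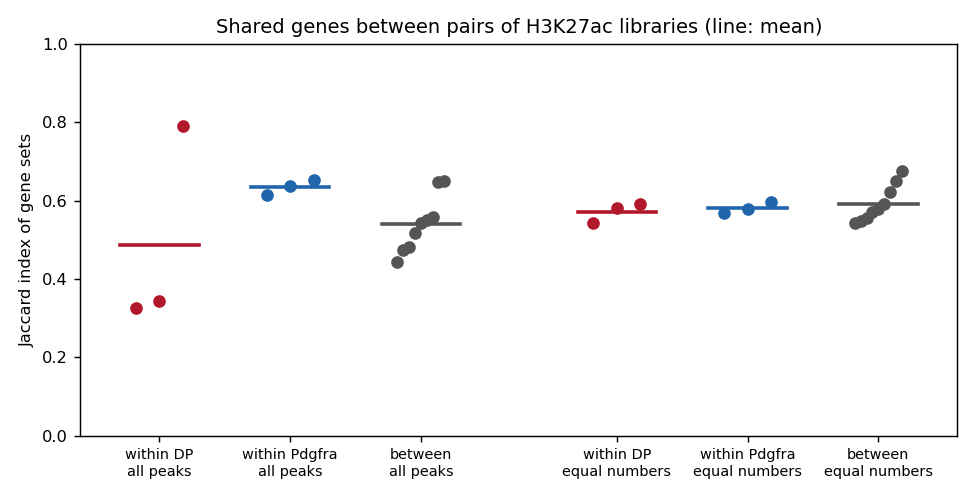
Jaccard index of the gene sets of each pair of H3K27ac libraries, within DP (red), within Pdgfra+ (blue) and between them (grey), with all peaks (left) and equal numbers (right); lines are means. With equal numbers the within-population pairs span 0.543 to 0.597 and the between-population pairs 0.542 to 0.676.

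Lineage and pathway lists held 430 genes, of which 327 were listed in at least 1 library. With all peaks, 33 of these (10.1%) were listed in 2 or 3 more DP than Pdgfra+ libraries, below the 16.0% of all listed genes, and 0 the other way round (0.0789% of all listed genes). Genes given below as in DP replicates 1 and 3 only share a common pattern. Of all 10144 listed genes, 1455 were in 2 DP libraries and in no Pdgfra+ library. In equal numbers, 13 of 203 (6.40%) were listed more often in DP and 7 (3.45%) in Pdgfra+, against 4.63% and 4.73% of all listed genes. No list was tested against other genes, and the list shares moved with the length of each library's list.

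Of 18 endoderm transcription factors, 11, 9 and 11 were listed with all peaks in DP and 9 in each Pdgfra+ library, and 9 genes, among them Gata4, Gata6, Sox17, Sox7 and Foxa2, were in all 6. The mean shares were 57.4% and 50% (exact permutation test, p = 0.40; adjusted p = 0.53 over 4 lists), beside 32.5% and 23.9% of all protein-coding genes. In equal numbers they were 46.3% and 48.1%, beside 14.2% of all protein-coding genes in either population. Hnf4a, a visceral endoderm factor gene, was listed only in DP replicates 1 and 3, at ranks 7704 and 6979. Of 24 basement membrane genes, 20, 12 and 20 were listed in DP and 17, 18 and 17 in Pdgfra+, and the mean shares were both 72.2% (exact permutation test, p = 1, adjusted p = 1). All 12 that DP replicate 2 listed, among them Lama1, Lamb1, Lama5, Agrn and Sparc, were in all 6 libraries. Dag1, the dystroglycan gene, was in DP replicates 1 and 3 only. Endocytosis genes, a pathway of the absorptive visceral endoderm, were listed 20, 8 and 21 times of 21 in DP and 14, 15 and 14 times in Pdgfra+, and Ap2m1, Ap2s1 and Dab2 were in 2 or 3 more DP libraries. The visceral endoderm list was mostly unlisted, with 6, 2 and 5 of 16 in DP and 2, 2 and 3 in Pdgfra+. Ihh, a hedgehog ligand gene, was in all 6, and Ttr, which encodes transthyretin, was in DP replicates 1 and 3.

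Of 25 naive pluripotency genes, 15, 6 and 11 were listed in DP and 5, 7 and 10 in Pdgfra+. The mean shares were 42.7% and 29.3% (exact permutation test, p = 0.40, adjusted p = 0.53), beside 32.5% and 23.9% of all protein-coding genes. Klf4, Klf5, Tbx3 and Sall4 were in all 6 libraries. In equal numbers the counts were 8, 6 and 5 in DP and 3, 3 and 6 in Pdgfra+. Besides Klf2, Klf5 and Lin28a differed there: Klf5 ranked 1575, 1950 and 8910 in DP and 3241, 7007 and 4352 in Pdgfra+, and Lin28a 1961, 991 and 2734 in DP and 5740 and 288 in Pdgfra+ replicates 2 and 3. Both sets of ranks overlapped between the populations. Tfcp2l1 was listed at ranks 3596 and 7528 in DP replicates 1 and 3 and at 2640 in Pdgfra+ replicate 3. Among 14 formative and primed genes, 7, 0 and 5 were listed in DP and 1, 3 and 0 in Pdgfra+. Otx2, a transcription factor gene of the formative state, ranked 717 and 2294 in DP replicates 1 and 3 and 4043 in Pdgfra+ replicate 2. The DNA methyltransferase genes Dnmt3a and Dnmt3b were in DP replicates 1 and 3 only, at ranks 7829 and 7503 and at ranks 3920 and 8696. Of 17 trophectoderm genes, 11, 7 and 11 were listed in DP and 8, 9 and 7 in Pdgfra+ (mean shares 56.9% and 47.1%; exact permutation test, p = 0.40, adjusted p = 0.53). Krt8, Krt18, Tead4, Elf3, Ets2 and Plet1 were in all 6, Tfap2c and Gata2 in none, and Eomes in DP replicate 1 alone at rank 9044. Tfap2a, a further AP-2 factor gene, was in DP replicates 1 and 3.

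Each signalling pathway had members listed in both populations. Of 19 genes of LIF and JAK-STAT signalling, 13, 6 and 12 were listed in DP and 7, 10 and 8 in Pdgfra+, with Lif, Lifr, Pim3 and Ptpn11 in all 6. Of 26 FGF and ERK genes, 21, 8 and 22 were listed in DP and 14, 17 and 13 in Pdgfra+. The receptor gene Fgfr2 and the target genes Spry2, Dusp4, Egr1, Fos and Myc were in all 6, and Spry1, Spry4 and Etv5 in DP replicates 1 and 3 only. Dusp6, an ERK phosphatase gene, ranked 1697, 5045 and 2643 in Pdgfra+ and 3467 and 3809 in DP replicates 1 and 3, and the ranks overlapped. Of 28 Wnt genes, 17, 8 and 19 were listed in DP and 11, 12 and 11 in Pdgfra+. Ctnnb1, Tcf7l2, Apc, Gsk3b, Fzd5 and Znrf3 were in all 6, and Axin2, a Wnt target and inhibitor gene, was in DP replicates 1 and 3, at ranks 6033 and 9675. Nodal and TGF-beta genes were listed 13, 4 and 13 times of 20 in DP and 6, 9 and 5 times in Pdgfra+, with the receptor gene Acvr2a in DP replicates 1 and 3 only. BMP genes were listed 9, 1 and 10 times of 18 in DP and 7, 9 and 3 times in Pdgfra+. Among 10 genes of PDGF and VEGF signalling, Vegfa and Flt1 were in all 6. Pdgfa, a ligand gene of PDGFRA, ranked 1758, 2764 and 4346 in DP and 5232 and 3332 in Pdgfra+ replicates 2 and 3. Pdgfra, the sorted receptor's gene, had a TSS peak in 5 libraries, with total signals of 32293 and 55343 in DP replicates 1 and 3 and 39399, 16748 and 29678 in Pdgfra+.

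Oxidative phosphorylation and ribosomal protein genes, which form the longest lists, gave the largest counts of members listed more often in DP with all peaks. Of 38 oxidative phosphorylation genes, 33, 11 and 31 were listed in DP and 11, 22 and 17 in Pdgfra+, and 6 (Ndufv1, Sdhb, Uqcrc1, Uqcrfs1, Cyc1 and Cox7a2) were in DP replicates 1 and 3 alone. Of 83 ribosomal protein genes, 76, 35 and 78 were listed in DP and 44, 49 and 62 in Pdgfra+, and 9 were in 2 or 3 more DP libraries. Of members listed in any library these were 6 of 35 and 9 of 79, beside the 16.0% of all listed genes. In equal numbers these lists held 7, 11 and 11 in DP against 9, 11 and 13 in Pdgfra+, and 39, 35 and 40 against 29, 27 and 44. Ribosomal protein genes have many pseudogene copies, and whether reads were split between them was not tested. Glycolysis genes were listed 13, 6 and 16 times of 16 in DP and 9, 12 and 10 times in Pdgfra+, and parietal endoderm genes 5, 3 and 8 times of 9 and 6, 5 and 3 times. Fibroblast markers were listed 2, 0 and 0 times of 12 in DP and 0 times in Pdgfra+.

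Relative signal was compared at the 2453 genes listed in all 6 libraries, as log2 of the highest maximum signal among a gene's peaks, centred on the library's median over these genes. By limma with Benjamini-Hochberg adjustment, 0 genes were higher in DP and 0 in Pdgfra+ (0% each). At an unadjusted p under 0.05 there were 95 (3.87%), 58 higher in DP and 37 in Pdgfra+. Alternative settings of the same test called 0 to 3 genes, and 55 to 204 at an unadjusted p under 0.05. The median standard error was 0.20 and the median half-width of the 95% confidence interval 0.40 on the log2 scale, or 1.32-fold. The largest change by p was at the histone genes Hist1h3a and Hist1h4a, which share a peak on chromosome 13 (23759456 to 23765627 in Pdgfra+ replicate 1). Its maximum signal was 12, 7 and 22 in DP and 26, 21 and 31 in Pdgfra+. After centring, DP was lower by a log2 difference of -0.99 (SE 0.23; limma adjusted p = 0.073) without overlap of the groups, and quantile normalization brought the limma adjusted p to 0.045. Without DP replicate 3 the difference was -1.20, with a limma adjusted p of 0.017. Histone genes have near-identical copies, so this value is uncertain. The largest difference was at Mmrn2, an endothelial matrix gene chosen here after its values were seen, with maximum signals of 73, 17 and 82 in DP and 17, 7 and 80 in Pdgfra+ (log2 difference 1.21, SE 0.80). Pdgfra+ replicate 3 was as high there as DP, and without it the difference was 1.96 (limma adjusted p = 9.2e-05). Next in Pdgfra+ came Csf2ra, a cytokine receptor gene (log2 difference -0.69, SE 0.21), Fbxo30 (-0.56) and Fam135a (-0.62), each with a limma adjusted p of 0.96. In DP the smallest p belonged to Arhgap5 (0.62, SE 0.19), Alpk3 (0.62), Sco2 (0.62) and Eif4g1, a translation initiation factor gene (0.61), also with limma adjusted p of 0.96. The difference at Alpk3 took the opposite sign when total signal was used in place of the maximum (-0.39).

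**Figure D5:**
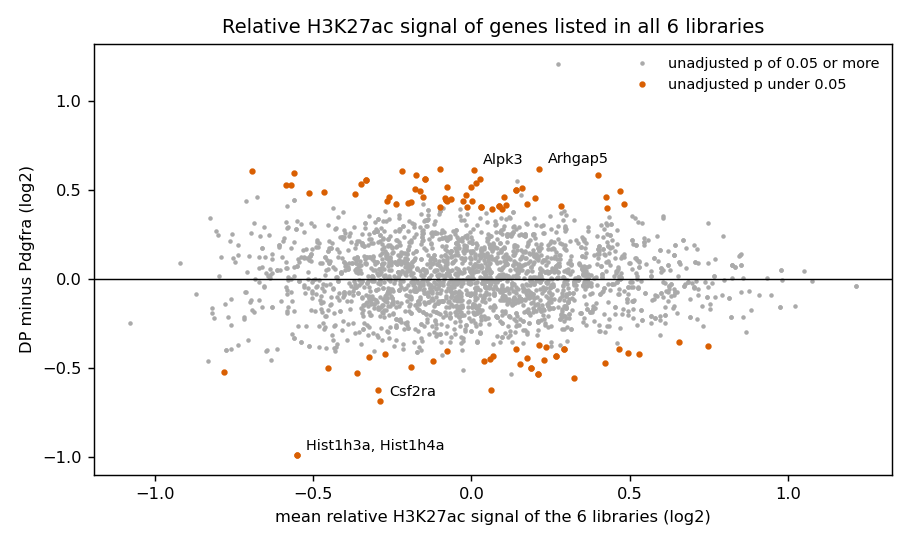
Difference in relative H3K27ac signal, DP minus Pdgfra+ (log2), against the mean of the 6 libraries (log2 of the highest maximum signal, centred on the library median) for 2453 genes; orange points have an unadjusted limma p under 0.05. The points centre on 0, with Hist1h3a and Hist1h4a at -0.99, and no gene passed the adjusted threshold.

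For the 9 endoderm transcription factors listed in every library no difference had an unadjusted limma p under 0.05. The maximum signal at Gata4 was 33, 18 and 34 in DP and 38, 23 and 46 in Pdgfra+, a log2 difference of -0.26 (95% interval -0.62 to 0.11). Gata6 gave 30, 17 and 41 in DP and 44, 23 and 32 in Pdgfra+, a difference of -0.14 (-0.51 to 0.24). Sox17 gave -0.10 (-0.50 to 0.30), Foxa2 -0.10 (-0.48 to 0.28), Lama1 -0.32 (-0.69 to 0.05) and Col4a1 -0.00 (-0.38 to 0.37). Of the 9 endoderm transcription factors tested, 1 was above 0, and the median was -0.10, against a median of 0.01 over all 2453 genes. The 12 basement membrane genes had a median of -0.02, the 4 naive pluripotency genes of -4.1e-05, the 9 oxidative phosphorylation genes of -0.17 and the 24 ribosomal protein genes of -0.00. Cdh1, the E-cadherin gene of the visceral endoderm list, gave -0.40 (-0.81 to -0.00), an interval that just left out 0, with a limma adjusted p of 0.997.

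The other 3 marks were then read at the genes that H3K27ac set apart. H3K4me1, which marks enhancers with or without activity, was listed at 14, 22 and 20 of the 35 DP-only genes in DP and at 4, 2 and 17 in Pdgfra+. Minus the share of all protein-coding genes listed for H3K4me1 in the same library, this was 27.3, 31.5 and 31.0 percentage points in DP and 5.36, 1.82 and 23.1 in Pdgfra+. Every DP library was above every Pdgfra+ library, at the smallest p of the exact two-sided permutation test, 0.10 (adjusted p = 0.60 over 6 tests). The genes had been chosen for another mark that followed the same populations, so this test is not independent of the choice. All protein-coding genes also include 11502 without a listed H3K27ac peak in any of the 6 libraries. The excess over genes listed for H3K27ac was not measured, so the values do not set the 35 apart from other acetylated genes. The H3K4me1 lists of Pdgfra+ replicates 1 and 2 covered 6.07% and 3.89% of all genes, against 12.7 to 31.4% in the other 4. With the same number of H3K4me1 peaks in each list the difference was 8.57 points in place of 19.8, in the same direction (exact permutation test, p = 0.10, adjusted p = 0.60). Peaks of H3K4me1 overlapped the H3K27ac intervals themselves at 11, 18 and 20 genes in DP and at 2, 0 and 13 in Pdgfra+. H3K27me3, the Polycomb mark, overlapped them at 0, 0 and 1 genes in DP and at 0 in Pdgfra+, and H3K9me3, a heterochromatin mark, at 4, 5 and 5 and at 7, 4 and 5. At the 19 Pdgfra+-only genes of equal numbers, H3K4me1 was listed at 7, 8 and 6 genes in DP and at 1, 2 and 8 in Pdgfra+. The excess over all genes differed between the populations by 5.95 percentage points (exact permutation test, p = 0.50, adjusted p = 0.90), higher in DP. For H3K27me3 and H3K9me3 the differences were 2.33 and -3.88 points at the DP-only genes and 2.23 and 1.24 points at the Pdgfra+-only genes (exact permutation tests, p = 0.60, 0.20, 0.80 and 1, adjusted p = 0.90, 0.60, 0.96 and 1).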

How the data were processed

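CUT&Tag peak lists of H3K27ac in 3 DP and 3 Pdgfra+ libraries were analysed, with those of 3 other marks at the genes set apart. The authors made coverage with bedtools and called peaks per library with SEACR in stringent mode against IgG. The submitters' processing notes name the mm10 build (GRCm38), bcl2fastq 2.19.1, Bowtie2, SAMtools 1.12, bedtools 2.26.0 and deepTools. The deposited values are total and maximum signal (coverage) per peak. Whether coverage was scaled to depth is not given in the sources used here. Replicates were not pooled.

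Peaks were assigned to 21646 protein-coding genes of GENCODE vM21 with pandas 2.3.3 in Python 3.11.15 and checked against bedtools 2.31.1. Genes of clone names were counted and not named. Peaks were ranked by total signal. Counts were compared by exact permutation tests over 20 assignments of the libraries. Relative signal was fitted with limma 3.58.1 (R 4.3.3; trend and robust) and tested on simulated data, with Benjamini-Hochberg adjustment and a threshold of 0.05. Named genes were the sorted and discussed loci of the study, up to 12 per direction by mean rank percentile among genes of 1 population only, the smallest p-values of the signal fit, and list members differing by 2 or 3 libraries. The members, lists and tests were chosen with earlier results of these data known. Alternatives covered assignment within 20 kb, to gene starts or to promoters (1000 bp upstream to 100 bp downstream), ranking, normalization, the replicate block and each library left out. Oct4+ lists and IgG were not used here. Motif windows left out peaks whose interval of maximum signal exceeded 300 bases.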

Additional observations from a re-analysis of the deposited data

How the results depend on the processing

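No comparison with an exact test passed 0.05 under any of 150 alternatives for 15 results, and none could, because 3 against 3 libraries cannot go below 0.10. With the same number of peaks per list the difference in genes became -8.33, in median width 402 bp, in endoderm transcription factors -1.85 percentage points and in gene-set similarity -0.0153, each with the opposite sign. Under that setting the excess of H3K27me3 and H3K9me3 became -0.907 and 4.99 points at the DP-only genes and -2.66 and -1.67 points at the Pdgfra+-only genes, also of opposite sign. Peaks within 20 kb gave -1.39 points for H3K9me3 at the latter, and 50% reciprocal overlap a similarity difference of -0.00146. Equal numbers over the 5 lists other than DP replicate 2, chosen after seeing the data, gave 0.0661 points for peaks over a TSS, 832.5 bp for width, and 36 DP-only and 44 Pdgfra+-only genes.

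With all peaks, DP-only genes numbered 23 by promoter overlap and 1490 when 2 of 3 libraries sufficed, and Pdgfra+-only genes 1 by gene starts and 1 when 2 of 3 sufficed. In equal numbers 2 of 3 libraries gave 141 and 139, and ranking by maximum signal gave 35 Pdgfra+-only genes. Leaving out each library in turn gave 35 to 1487 DP-only genes with all peaks (1487 without DP replicate 2, 93 without Pdgfra+ replicate 2 and 104 without Pdgfra+ replicate 3) and 0 to 4 Pdgfra+-only genes (4 without DP replicate 1, 3 without DP replicate 3 and 1 without Pdgfra+ replicate 2). In equal numbers the ranges were 23 to 83 and 47 to 77. Leaving out a library relaxes the criterion, so these counts can only stay or rise. The same step gave -940.9 to 59.3 bp for width, -0.0375 to 0.12 for similarity, and, at the Pdgfra+-only genes, -0.748 to 7.56 points for H3K27me3 and -1.84 to 2.79 points for H3K9me3. The causes were not tested.

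Relative signal gave 2 genes higher in Pdgfra+ (Hist1h3a and Hist1h4a) with quantile normalization and 2 with promoter peaks only. Leaving out libraries gave 0 to 1 genes higher in DP (Mmrn2) and 0 to 2 in Pdgfra+. The difference at Alpk3 became -0.39 with total signal. With the replicate block 1 gene was higher in DP (Mmrn2) and 2 in Pdgfra+, and no other call changed. The numbers are not known to pair the libraries, as same-numbered libraries correlated by -0.095, -0.031 and -0.22 in their deviations from the population means. Unknown depth and lists that end at different signal limit every count of listed genes.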
